A study of Mus musculus with 16 samples.

Results

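The Ifit family comprises 6 neighbouring genes on mouse chromosome 19, Ifit1, Ifit2, Ifit3, Ifit3b, Ifit1bl1 and Ifit1bl2. They were taken by symbol from the 32285 genes counted, and all 6 had reads. The data are unique molecular identifier (UMI) counts, each UMI being 1 captured transcript, from single nuclei of the hippocampus of 16 male mice, 1 library per mouse and 4 libraries per group. Wild-type (WT, C57BL/6) mice aged 2 months and 23 days and mice lacking the interferon receptor gene Ifnar1 (KO, Ifnar1-/-) aged 3 months and 3 days received repeated injections of vehicle or DMXAA. The deletion was in the germline, so every cell of a KO mouse carried it. Genotype coincided with age, and effects of the 2 cannot be told apart. A library here is the tissue of a single mouse, and the right hippocampus was used after perfusion.

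DMXAA is a small molecule that activates the mouse form of STING, the adaptor of the cGAS pathway for cytosolic DNA. STING drives the kinase TBK1 and the factor IRF3 to switch on type I interferon genes, and secreted interferon acts back on cells through the IFNAR1 and IFNAR2 receptor. Ifit genes are classical targets of that receptor's signal, and some can also be switched on by IRF3 directly. Their proteins are made largely of tetratricopeptide repeats. IFIT1 binds viral RNA ends and blocks its translation, human IFIT3 binds human IFIT1, and IFIT2 limits several RNA viruses in neurons. Ifit3b is a close copy of Ifit3, and Ifit1bl1 and Ifit1bl2 are copies related to Ifit1 whose roles are less well known.

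The 6 genes lie within 99.3 kb of each other (build GRCm38, GENCODE annotation) and all are annotated as protein coding. Ifit1 spans chr19:34640871-34650009 on the plus strand, and Ifit1bl2 spans chr19:34617049-34640743 on the minus strand, so the pair stand head to head with their starts 128 bases apart. Ifit2 (chr19:34550694-34576419), Ifit3 (chr19:34583531-34588731) and Ifit3b (chr19:34607970-34613401) run on the plus strand, and Ifit1bl1 (chr19:34592891-34601956) on the minus strand. No 2 members overlap. The RefSeq promoter windows of the family (250 bases before to 50 bases after each annotated start) were searched on both strands for GAAANNGAAA. This core is found in many interferon-responsive promoters but not in all, and all 6 genes had a window. Of 32851 promoter windows of that length in the genome, 3.44% held the motif and 0.225% held it 2 or more times. Ifit1, Ifit3, Ifit3b and Ifit1bl2 had a window with 2 matches, Ifit1bl1 had 1 match in each of its 2 windows, and both windows of Ifit2 and the second window of Ifit1bl2 had none. The stretches around the matches are shown 5′ to 3′ on the strand of the gene, because 1 stretch is shared by a gene that was called and a gene that was not, and another is duplicated, and capitals mark the motif (its reverse complement where it lies on the other strand).
Ifit1, chr19:34640755-34640843, plus strand: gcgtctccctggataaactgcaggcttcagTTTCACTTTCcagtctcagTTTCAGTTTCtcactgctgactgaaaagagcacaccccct
Ifit1bl2, chr19:34640755-34640843, minus strand: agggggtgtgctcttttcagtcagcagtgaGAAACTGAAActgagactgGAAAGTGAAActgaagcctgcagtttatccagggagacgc
Ifit3, chr19:34583343-34583446, plus strand: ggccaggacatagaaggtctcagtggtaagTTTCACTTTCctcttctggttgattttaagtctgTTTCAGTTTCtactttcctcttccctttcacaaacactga
Ifit3b, chr19:34607739-34607842, plus strand: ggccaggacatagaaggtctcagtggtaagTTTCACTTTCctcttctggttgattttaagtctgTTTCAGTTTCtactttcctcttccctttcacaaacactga
Ifit1bl1, chr19:34602033-34602102, minus strand: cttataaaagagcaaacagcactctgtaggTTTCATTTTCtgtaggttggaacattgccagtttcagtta
The Ifit1 and Ifit1bl2 windows thus hold the same 2 matches, read from opposite strands, and the Ifit3 and Ifit3b stretches are identical over 104 bases. A match describes these letters only. The transcripts of Ifit3 and Ifit3b are also alike: 869 of the 1696 runs of 50 bases in Ifit3 (51.2%) occur in Ifit3b, against 7.06% of Ifit1 runs in Ifit1bl2, so a read from the shared part cannot be placed and the values of Ifit3 and Ifit3b are uncertain relative to each other. In the last 500 bases, where 3′ reads tend to fall, 14.9% of the Ifit3 runs occur in Ifit3b, and 0% of the Ifit3b runs occur in Ifit3.

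After filtering, 108878 nuclei remained, between 5163 and 9237 per library, with a median of 4086.5 to 5120.5 UMIs per nucleus. Nuclei were clustered without the interferon genes and clusters were named from marker genes as microglia-like, astrocyte-like and so on, names shortened in what follows. Microglia carried all 8 of their markers, in 3 clusters of unequal genotype (93.9%, 14.6% and 40.7% WT nuclei), so WT and KO microglia came mostly from different clusters. The library of WT DMXAA replicate 3 held 82 neutrophil-like nuclei, against 0 to 6 in every other library. Ifnar1 itself was still counted in KO mice, at 11.5 ± 0.57 CPM (UMIs per 1000000 UMIs of the library and class; SD, n = 4) over all nuclei against 18 ± 0.80 in WT vehicle (log2 difference −0.33 ± 0.07 SE, adjusted p = 0.0017, edgeR quasi-likelihood test). The fit scales libraries by TMM factors, and without them the difference was −0.65 ± 0.11. These 3′ counts do not say which part of the transcript was left, so they do not check the deletion.

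Over all nuclei of WT mice Ifit1 and Ifit3 rose with DMXAA, and of the 6 members these 2 passed the test (adjusted p under 0.05 over all genes and a log2 change beyond 0.1 in size). In the same comparison 0.473% of the 20103 genes tested were called higher. Ifit1 stood at 1.09, 1.70, 0.914 and 0.828 CPM in the 4 WT vehicle libraries and at 51.0, 28.9, 5.13 and 13.4 CPM in the 4 WT DMXAA libraries (log2 change 4.43 ± 0.49 SE, adjusted p = 0.00022). The groups did not overlap, and the lowest treated library was WT DMXAA replicate 3. Ifit3 rose from 0.710 ± 0.179 to 4.84 ± 3.85 CPM (SD, n = 4; log2 change 2.77 ± 0.46 SE, adjusted p = 0.0066). With the WT libraries fitted alone Ifit3 was not called (adjusted p = 0.146). Its near copy Ifit3b went from 0.552 ± 0.163 to 2.36 ± 1.80 CPM and just missed the threshold (log2 change 2.08 ± 0.44, adjusted p = 0.051). Ifit2 went from 2.10 ± 0.138 to 4.02 ± 1.90 CPM, with a log2 change of 0.97 ± 0.24 and an adjusted p of 0.16. In Ifit2 and Ifit3b the vehicle range reached the WT DMXAA replicate 3 library, at 2.15 and 0.541 CPM, and without that library both passed (adjusted p = 0.028 and 0.0013), in a fit that called 0.938% of all genes higher. Ifit1bl1 and Ifit1bl2 stood at 1.18 ± 0.396 and 2.12 ± 0.431 CPM with vehicle and at 1.18 ± 0.249 and 2.21 ± 0.435 CPM with DMXAA (log2 changes 0.11 ± 0.34 and 0.18 ± 0.23). Ifit1bl2 shares its promoter stretch with Ifit1 and was not called, and leaving out WT DMXAA replicate 3 turned both log2 changes, to −0.14 and −0.11. These sums mix classes of nuclei, and the levels within each class follow with its number of nuclei.

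In KO mice no member passed the test with DMXAA, in all nuclei or in any class tested, and 0% of the 20103 genes were called over all nuclei, although 1180 had an unadjusted p under 0.05 in edgeR. DESeq2 and limma-trend called 0 members in KO mice as well. Ifit1 stood at 0.182, 0.314, 0.182 and 0.277 CPM in KO vehicle libraries and at 0.458, 0.422, 0.459 and 0.368 CPM in KO DMXAA libraries. The KO groups did not overlap, both lay below every WT vehicle library, and the log2 change was 0.77 ± 0.66 (adjusted p = 0.79). Ifit3 stood at 0.395 ± 0.111 and 0.416 ± 0.159 CPM, and Ifit3b at 0.311 ± 0.109 and 0.317 ± 0.0950 CPM. Ifit2 had 388 UMIs with vehicle and 368 with DMXAA. Ifit1bl1 had 225 and 165 UMIs (log2 change −0.46 ± 0.34, adjusted p = 0.78), and Ifit1bl2 had 442 and 344 (−0.41 ± 0.23, adjusted p = 0.77). The difference between the genotypes in the effect of DMXAA was tested as an interaction, which called 0.0796% of genes over all nuclei and none of the members. For Ifit1 the interaction was 3.66 ± 0.85 on the log2 scale (adjusted p = 0.18) and for Ifit3 it was 2.78 ± 0.70 (adjusted p = 0.22). The interaction called 2 members with DESeq2, which called 0.612% of all genes, and 2 in the edgeR fit without WT DMXAA replicate 3, which called 0.275%.

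Microglia, the resident macrophages of the brain, had Ifit2 and Ifit3 as their most counted members after DMXAA. Across 1455 nuclei of WT DMXAA mice the family had 388 UMIs, against 10 UMIs in 1329 nuclei of WT vehicle mice. Ifit2 stood at 0, 3.19, 1.64 and 0 CPM with vehicle and at 120, 54.0, 26.4 and 25.5 CPM with DMXAA. Every treated library lay above every vehicle library, and the edgeR log2 change was 5.38 ± 0.76 (adjusted p = 0.0015), where 1.35% of the 8975 genes tested were called higher. Ifit2 was the one member to enter the fit in microglia, and it did so only through its 4 WT DMXAA libraries, so its call partly restates that choice. With no filter on low counts the adjusted p was 2.2e-07 and 4 members were called, where 0.795% of 21260 genes were called higher. That fit rests on the same counts and is no separate support. Ifit3 stood at 0, 3.19, 3.28 and 0 CPM with vehicle and at 85.3, 44.4, 9.60 and 26.8 CPM with DMXAA, 4 UMIs against 117. Its groups did not overlap (exact two-sided permutation test p = 0.0286, the smallest that 4 libraries against 4 can give). Ifit1 went from 1 UMI in all to 54 UMIs, a pooled ratio of 47.6 with an exact 95% counting interval of 8.19 to 1915, and its groups did not overlap either (exact permutation p = 0.0286). With the interferon genes used for clustering, no member was called in microglia. In that setting 452 WT DMXAA nuclei were named microglia in place of 1455, with 6 in 1 library. They held 4 UMIs of Ifit1, 22 of Ifit2 and 12 of Ifit3. The log2 change of mean CPM was then 2.18 for Ifit1 and 5.38 for Ifit3 in place of 3.86 and 4.02, with exact permutation p of 0.43 and 0.143. Ifit3b was at 33.5, 22.2, 0 and 9.38 CPM after DMXAA, where the library at 0 was replicate 3, and it reached an exact permutation p of 0.143. Ifit1bl1 and Ifit1bl2 had 6 and 5 UMIs after DMXAA and none with vehicle (exact permutation p = 0.143 for each). In KO microglia the family was almost without reads: 2 UMIs in the 949 vehicle nuclei, 1 of Ifit2 and 1 of Ifit1bl1, and 0 in the 1062 DMXAA nuclei, a count that allows each member up to 1.53 CPM.

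**Figure D1:**
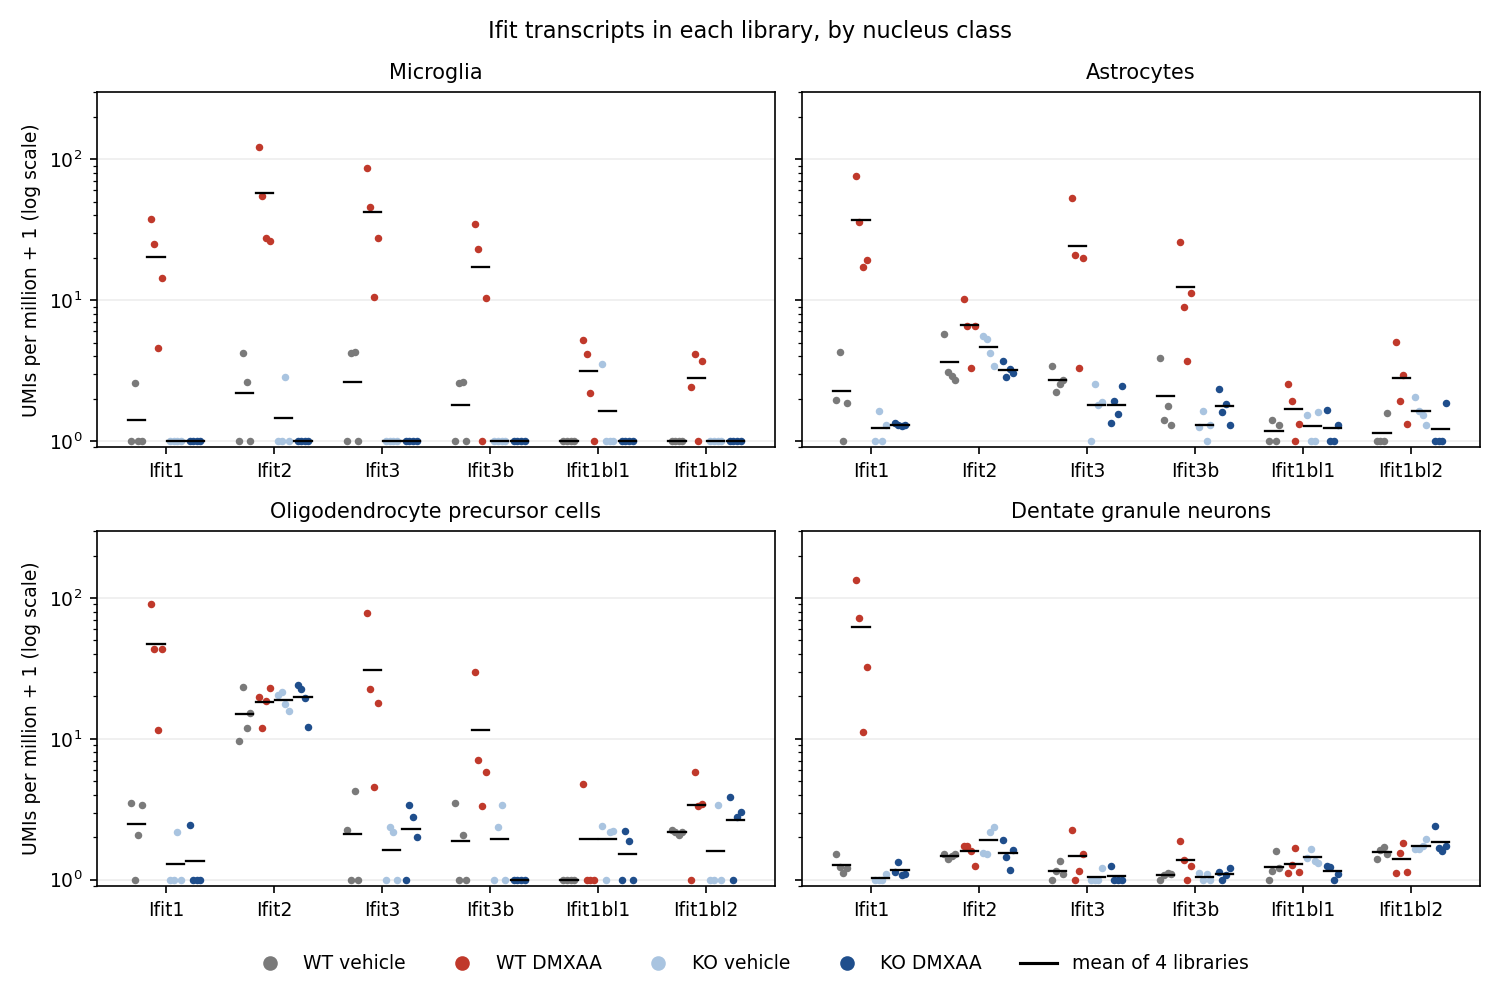
CPM of each Ifit gene in each library (log scale, 1 added to every value), in microglia, astrocytes, oligodendrocyte precursor cells and dentate granule neurons; points are libraries coloured by group and the black bars are means of 4 libraries. In microglia the 4 WT DMXAA libraries sit between 25.5 and 120 CPM for Ifit2, while in dentate granule neurons the WT DMXAA libraries reach 133 CPM for Ifit1 and stay below 1 CPM for Ifit2.

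In excitatory neurons Ifit1 was the member called, and most of its UMIs lay in the granule neurons of the dentate gyrus, the cells that receive the cortical input to the hippocampus. In excitatory neurons Ifit1 went from 0.568 ± 0.166 to 28.1 ± 23.4 CPM in WT mice (log2 change 5.61 ± 0.58, adjusted p = 0.00021), where 0.119% of the genes tested were called higher. Ifit3 went from 20 to 74 UMIs in WT excitatory neurons (pooled ratio 3.76, counting interval 2.27 to 6.51), with overlapping libraries (exact permutation p = 0.0857). Ifit3b went from 41 to 78 UMIs (1.94, 1.31 to 2.90; log2 change 1.06 ± 0.59, adjusted p = 1), overlapping too. Of 2754 Ifit1 UMIs in excitatory neurons after DMXAA, 2213 were in dentate granule neurons, where WT vehicle mice had 10. Ifit1 stood there at 0.532, 0.235, 0.118 and 0.210 CPM with vehicle and at 133, 70.8, 10.2 and 31.6 CPM with DMXAA. The groups were far apart (log2 change 7.81 ± 0.74, adjusted p = 3.7e-05), where 0.136% of the genes tested were called higher. Ifit1 too entered the fit only through the WT DMXAA libraries, so its call partly restates that choice. With no filter on low counts its adjusted p was 1.7e-07, on the same counts and so no separate support. The number of granule nuclei differed little, 5201 in WT vehicle and 5252 in WT DMXAA mice. KO excitatory neurons as a whole had 14 Ifit1 UMIs with vehicle and 32 with DMXAA (pooled ratio 2.36, counting interval 1.22 to 4.78). Their libraries did not overlap, and the gene was not called (log2 change 1.12 ± 0.96, adjusted p = 0.79). In KO dentate granule neurons Ifit1 had 1 UMI with vehicle and 6 with DMXAA. There Ifit1bl1 went from 16 UMIs to 5, at 0.317 to 0.653 CPM with vehicle and 0 to 0.258 CPM with DMXAA, without overlap (exact permutation p = 0.0286, unadjusted, the smallest p possible, reached by this 1 of 72 exact tests of members outside the fits in KO mice). The members other than Ifit1 had 13 to 24 UMIs each in WT DMXAA granule neurons against 3 to 22 with vehicle, and Ifit2 stood at 0.480 ± 0.0647 CPM with vehicle and 0.588 ± 0.231 CPM with DMXAA. None of the other 5 members entered the fit there, and their exact permutation p values ran from 0.14 to 0.63 in WT mice.

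Pyramidal neurons of CA1 and CA3, the further relays of the hippocampus, had lower Ifit1. In CA1 the gene stood at 0.652, 0.834, 0.285 and 1.25 CPM with vehicle and at 35.9, 10.6, 2.03 and 5.90 CPM with DMXAA, without overlap (log2 change 4.01 ± 0.75, adjusted p = 0.07), again tested only through the treated libraries, and without replicate 3 of WT DMXAA 1 member was called there, with 0.264% of all genes higher. In CA3 it had 2 UMIs with vehicle and 79 with DMXAA (exact permutation p = 0.0286). CA1 neurons also had 22 UMIs of Ifit3 after DMXAA, 14 of them in 1 library, and 0 with vehicle (exact permutation p = 0.0286). The lowest treated library held 1 UMI, so the lack of overlap rests on that UMI. The pooled treated level was 5.88 times a floor of 3 counts over the vehicle group, a ratio that allows for no spread between libraries. In inhibitory neurons Ifit1 went from 2.03 ± 1.11 to 11.5 ± 13.7 CPM, and 1 treated library, replicate 3 at 1.60 CPM, lay within the vehicle range (log2 change 2.53 ± 0.73, adjusted p = 1). The Ifit1 ratio of dentate granule neurons to 4 other neuron classes within a library was compared between WT vehicle and DMXAA mice, and the ratio to deep-layer cortical or subiculum neurons was not. With DMXAA it was higher by 2.60 on the log2 scale against CA1, 2.44 against CA3, 3.56 against upper-layer cortical neurons and 3.61 against inhibitory neurons. These differences are a description with no test, since the class pairs were chosen after the values were seen, and with vehicle levels near or below 1 CPM the 1 CPM added before the logarithm sets much of the vehicle ratio.

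**Figure D2:**
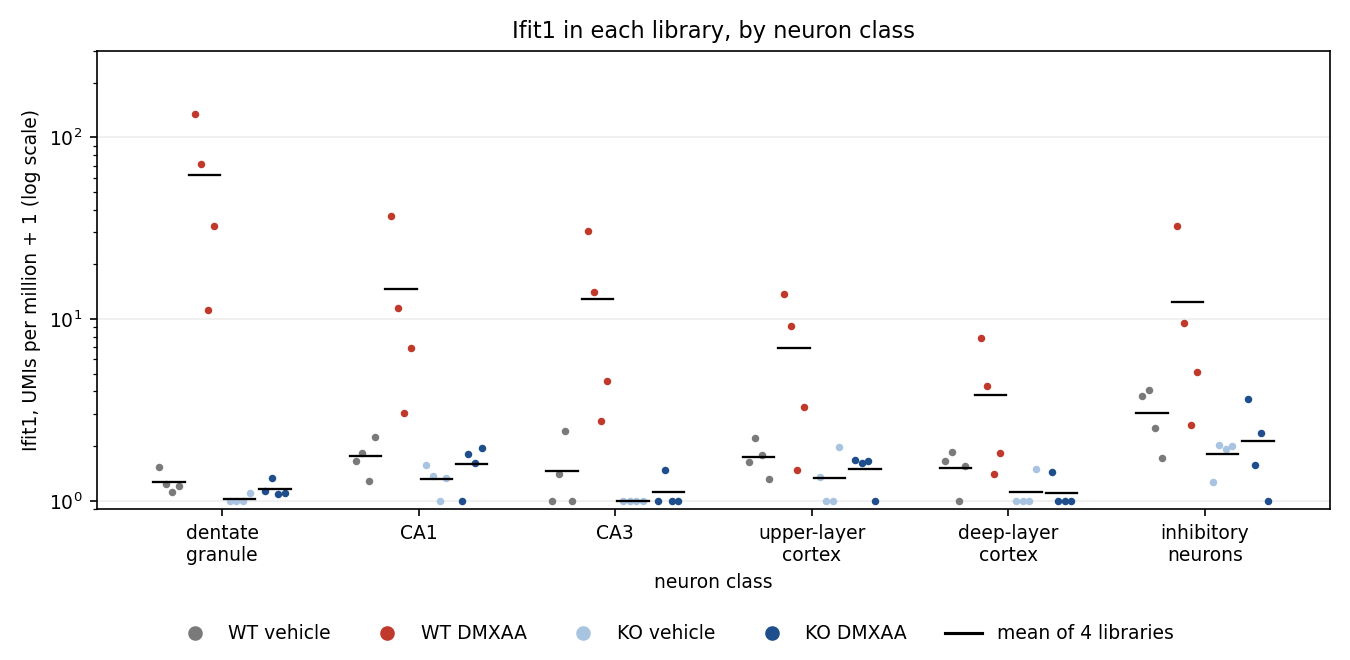
Ifit1 CPM in each library (log scale, 1 added to every value) by neuron class; points are libraries coloured by group and black bars are means of 4 libraries. WT DMXAA libraries of dentate granule neurons sit between 10.2 and 133 CPM, while KO libraries of either treatment reach at most 2.63 CPM, in inhibitory neurons.

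Astrocytes and oligodendrocyte precursor cells (OPCs), which divide and give rise to oligodendrocytes, shared the separation of Ifit1 between WT vehicle and WT DMXAA libraries, and in OPCs Ifit3 separated too. In WT astrocytes Ifit1 stood at 0.952, 3.30, 0 and 0.865 CPM with vehicle and at 75.4, 34.8, 16.2 and 18.4 CPM with DMXAA (log2 change 4.88 ± 0.61, adjusted p = 0.00081), where 0.262% of the genes tested were called higher. Outside WT DMXAA 1 library reached the limit of the filter on low counts and 4 were needed. The gene was thus tested because of its treated libraries, and its call partly restates that choice. Without the filter its adjusted p was 3.4e-06, on the same counts and so no separate support. With the WT libraries fitted alone it was not called (adjusted p = 0.112). Astrocytic Ifit3 went from 18 UMIs to 208 and Ifit3b from 10 to 104, and in both the replicate 3 library overlapped the vehicle libraries (exact permutation p = 0.0571 each). Astrocytic Ifit2 went from 2.61 ± 1.44 to 5.66 ± 2.80 CPM (log2 change 1.22 ± 0.40, adjusted p = 0.5). In OPCs Ifit1 stood at 2.49, 0, 1.09 and 2.36 CPM with vehicle and at 89.1, 42.2, 10.6 and 42.4 CPM with DMXAA, and its groups did not overlap (5 and 150 UMIs, pooled ratio 31 with a counting interval of 13 to 96.9, exact permutation p = 0.0286). OPC Ifit3 went from 4 to 97 UMIs (exact permutation p = 0.0286) and Ifit3b from 3 to 34 (p = 0.0571 in the same exact test). In KO astrocytes Ifit1 had 3 and 4 UMIs, and in KO OPCs 1 and 1, with vehicle and DMXAA.

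Ifit2 had a second pattern, present in all 4 groups, which overlapped, in oligodendrocytes, the myelinating cells, in OPCs, in fibroblasts and in inhibitory neurons. In oligodendrocytes it stood at 4.50 ± 0.651 CPM in WT vehicle, 4.78 ± 1.18 in WT DMXAA, 6.18 ± 3.19 in KO mice given vehicle and 5.11 ± 2.77 in those given DMXAA (SD, n = 4 each), from 52 to 61 UMIs per group. In OPCs it stood at 14.1 ± 6.06, 17.3 ± 4.64, 17.8 ± 2.60 and 18.7 ± 5.31 CPM in the same order. In fibroblasts the means were higher still, at 20.8 ± 12.5, 29.4 ± 13.6, 26.5 ± 7.53 and 25.3 ± 4.90 CPM, and in inhibitory neurons they were 4.39 ± 0.964, 5.62 ± 2.03, 3.74 ± 2.30 and 5.43 ± 2.49 CPM. Ifit2 was not called in any of these 4 classes in any comparison. In WT vehicle libraries OPC Ifit2 exceeded the 1.21 ± 1.53 CPM of microglia, while after DMXAA microglia stood higher, and the log2 ratio of microglia to OPCs was 4.36 higher with DMXAA, a description like those of the neuron classes. The corresponding differences were 3.84 against astrocytes and 4.63 against oligodendrocytes. Oligodendrocyte Ifit1 went from 1 to 43 UMIs in WT mice, with no overlap (exact permutation p = 0.0286, unadjusted), and was 0 in all 8 KO libraries. UMIs this sparse were not told apart from free RNA, as set out below.

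The make-up of the family's reads after DMXAA was set side by side between classes. In WT DMXAA microglia Ifit2 had 41.5% of the 388 family UMIs (exact Clopper-Pearson 95% interval 36.5 to 46.6%, counting error only), between 32.8 and 64.7% in the 4 libraries separately. Replicate 1 alone held 201 of the 388 UMIs, and the highest share of Ifit2 was 22 of the 34 UMIs of replicate 3. Ifit3 had 30.2%, Ifit1 13.9% and Ifit3b 11.6%. In dentate granule neurons Ifit1 had 96.3% of 2299 UMIs (95.4 to 97.0%), and in the 4 libraries separately its share ran from 81.8 to 97.7%. In astrocytes Ifit1 had 45.3% and Ifit3 29.4% of 708 UMIs, and in OPCs the same 2 had 43.0 and 27.8% of 349. These are shares of UMIs, and a 3′ count need not grow with the length of the transcript. Divided by transcript length, Ifit3 had 42.9% and Ifit2 27.0% in microglia, the reverse of their order in UMIs, so the order of the 2 genes there depends on the scale, while Ifit1 had 96.1% in dentate granule neurons. The log2 ratio of dentate granule neurons to microglia within a WT DMXAA library was 1.46 ± 0.30 for Ifit1, −4.90 ± 0.89 for Ifit2 and −4.54 ± 1.06 for Ifit3 (SD, n = 4; 1 CPM added), given as a description because the classes were chosen after the values were seen.

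**Figure D3:**
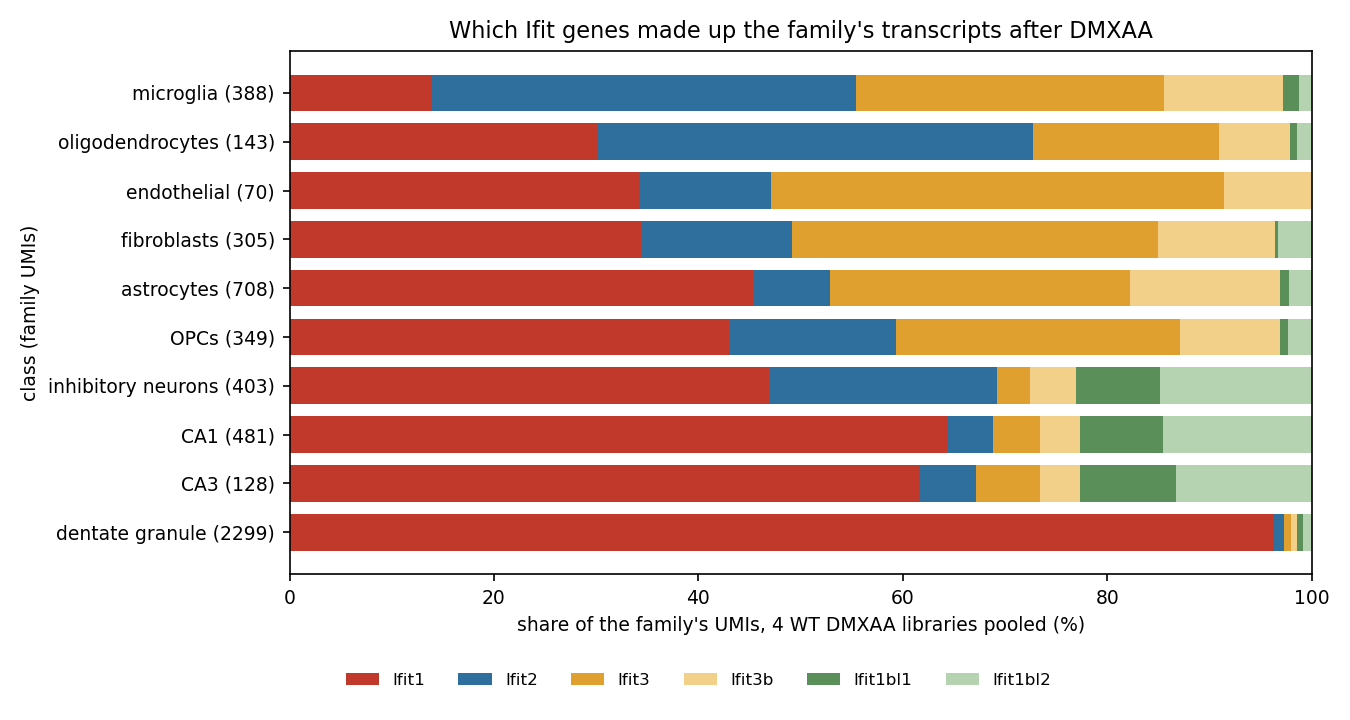
Share of each Ifit gene in the family's UMIs (per cent, horizontal axis) in 10 nucleus classes, with the 4 WT DMXAA libraries pooled and the number of family UMIs in brackets. Ifit2 holds the widest bar in microglia (41.5%) and Ifit1 nearly the whole bar in dentate granule neurons (96.3%).

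At the level of single nuclei, 18.8 ± 12.8% of WT DMXAA microglia had a UMI of any member (SD over 4 libraries), against 0.469 ± 0.541% with vehicle, 0.209 ± 0.245% in KO vehicle and 0% in KO DMXAA. Thinned to 1000 UMIs per nucleus, so that depth is equal and 26 shallower WT DMXAA nuclei drop out, the shares were 11 ± 8.5% and 0.291 ± 0.337% in WT mice. Of 5252 dentate granule nuclei of WT DMXAA mice, 1226 had an Ifit1 UMI, or 24.1 ± 14.8% per library (5.30 ± 4.41% when thinned). The share with vehicle was 0.179 ± 0.0910% (0.0257% when thinned). Free RNA in a droplet can give UMIs to nuclei that do not express a gene, and no class here is known to lack Ifit1. In oligodendrocytes of the same WT DMXAA libraries, among the classes with the lowest levels, the Ifit1 share was 0.705 ± 0.540% (0.363% when thinned), at a median of 2132 UMIs per nucleus against 7265 in granule neurons. A share of that size, oligodendrocytes included, was not told apart from free RNA. For Ifit2 the low class was the granule neurons, with 0.422 ± 0.15% (0.0594% when thinned) against 8.24 ± 6.30% (4.46% when thinned) in microglia, at a median of 1936 UMIs. A positive granule nucleus had 1.81 Ifit1 UMIs on average and at most 13, and a microglial nucleus had at most 10 of Ifit2. Among nuclei with any family UMI, 43 of 271 microglia (15.9%) and 22 of 1287 granule neurons (1.71%) had 2 or more different members.

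Fibroblasts and endothelial cells, of the meninges and vessels, had high Ifit levels. Mural cells of the vessel wall were too few to compare, with 3 UMIs of the family in 69 WT vehicle nuclei and 1 in 37 WT DMXAA nuclei. Those 3 UMIs come to a mean of 22.7 ± 27.5 CPM (SD, n = 4), and the WT DMXAA nuclei came from 2 libraries. WT fibroblasts already had Ifit1 at 28.2 ± 25.4 CPM and Ifit3 at 23.2 ± 5.40 CPM with vehicle, and 62.3 ± 48.6 and 69.9 ± 59.9 CPM with DMXAA, overlapping, with neither called (log2 changes 1.20 and 1.63, adjusted p = 0.63 for Ifit3). Endothelial nuclei, the lining of the vessels, numbered 0 to 5 per WT vehicle library and 3 to 26 per WT DMXAA library, too few for the fit. They held 31 UMIs of Ifit3, 24 of Ifit1, 9 of Ifit2 and 6 of Ifit3b after DMXAA, and 1 UMI of Ifit3 with vehicle. Ordered by mean Ifit1 after DMXAA among classes with 20 or more of its UMIs in WT DMXAA and nuclei in every library of all groups, fibroblasts (62.3 CPM), dentate granule neurons (61.5), OPCs (46.1), astrocytes (36.2), microglia (19.3), CA1 (13.6), CA3 (12), inhibitory neurons (11.5), upper-layer cortical neurons (5.91), oligodendrocytes (3.48) and deep-layer cortical neurons (2.84) followed each other, and each neighbouring pair overlapped.

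**Figure D4:**
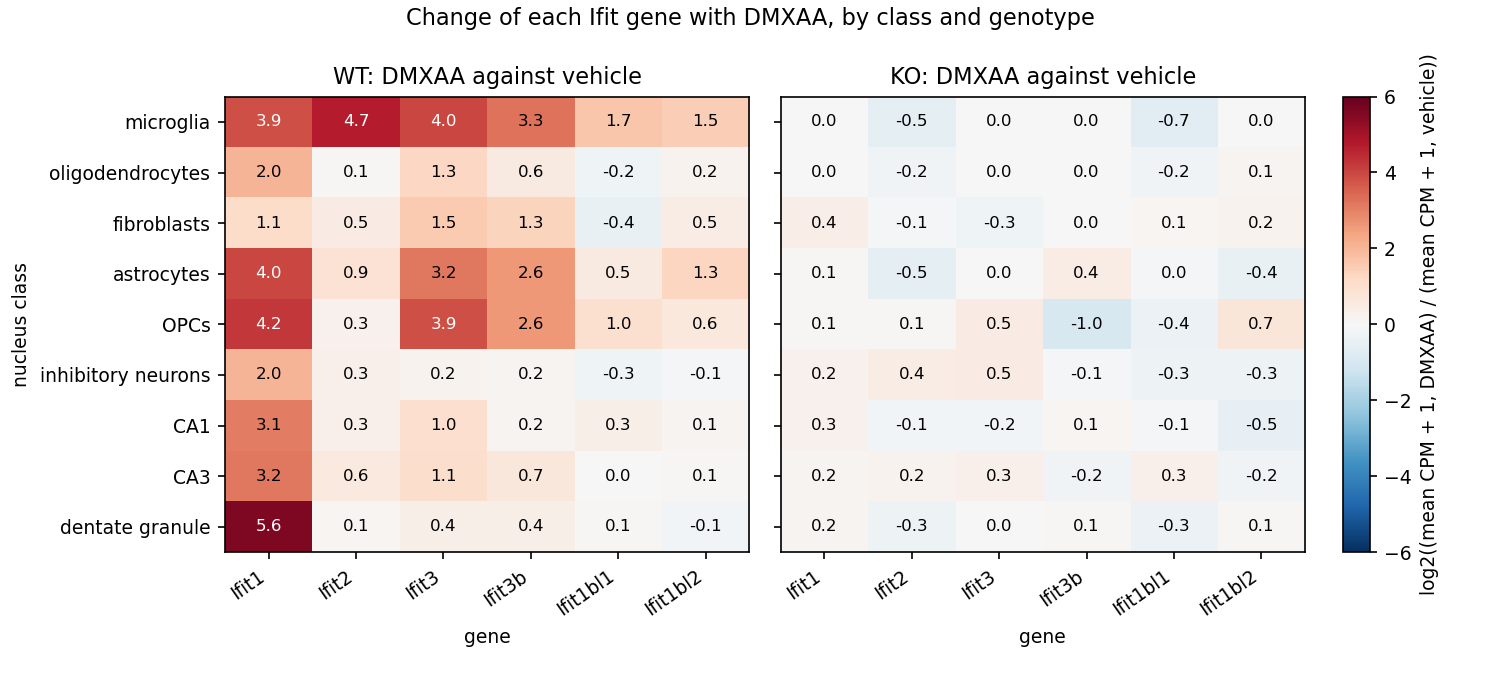
Change of each Ifit gene with DMXAA as log2((mean CPM + 1, DMXAA) / (mean CPM + 1, vehicle)) in 9 nucleus classes (rows) for WT mice (left) and KO mice (right); red is higher and blue is lower with DMXAA, and each cell prints its value. In the WT panel Ifit1 runs from 1.12 in fibroblasts to 5.62 in dentate granule neurons and Ifit2 is highest in microglia (4.70), while in the KO panel Ifit1 runs from 0 to 0.42.

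Between the groups injected with vehicle, Ifit1 was lower in KO than in WT mice over all nuclei (log2 difference −1.91 ± 0.60, adjusted p = 0.016), where 26.6% of genes were called lower and 22.2% higher. Scaling matters here: without TMM factors the median log2 difference of all genes was −0.38 in place of −0.06, with 8954 genes lower and 2184 higher in place of 5341 and 4465, so a KO difference is relative to that shift. Ifit2 and Ifit1bl2 were higher in KO (0.64 ± 0.25 and 0.79 ± 0.23, adjusted p = 0.044 and 0.012). The Ifit2 call was lost in 13 of 23 alternatives, among them each WT vehicle library left out, KO vehicle replicate 1 left out (0.41), nuclei over the gene limit kept (0.43) and no scaling factors (no TMM, 0.31). Ifit1bl2 lost its call with no TMM (0.47, adjusted p = 0.055), where 1 member, Ifit1, was called in place of 3 and 44.5% of all genes were lower, and Ifit1 with nuclei over the gene limit kept (−1.29, adjusted p = 0.056). With these shares of all genes called, 3 members of 6 is no result about the family. Fibroblasts had the largest difference of the members called, in Ifit1, which fell from 28.2 ± 25.4 CPM in WT vehicle to 1.75 ± 1.44 CPM in KO vehicle (−3.79 ± 0.86, adjusted p = 0.01), where 7.32% of genes were called lower. Ifit1 passed the filter on low counts in fibroblasts through WT libraries alone (2 vehicle and 4 DMXAA), so its call partly restates that choice. With no filter the difference was −3.69 (adjusted p = 2.7e-09), on the same counts and so no separate support. All 4 KO vehicle libraries, at 0 to 3.49 CPM, lay below all 4 WT vehicle libraries, at 6.25 to 64.5 CPM, and without WT vehicle replicate 2 the difference was −2.89 and not called. Ifit1bl2 was higher in KO vehicle excitatory neurons (0.87, adjusted p = 0.013) and inhibitory neurons (1.03, adjusted p = 0.012), where 23.1% and 19.4% of genes were called higher. With no TMM neither was called (0.41, adjusted p = 0.13, and 0.67, adjusted p = 0.06). In CA1 both Ifit1-like copies were higher in KO (Ifit1bl1 1.47, adjusted p = 0.0053, and Ifit1bl2 1.41, adjusted p = 0.0012), where 22.9% of genes were called higher. Ifit1bl1 passed the filter on low counts there through KO libraries alone, so its call partly restates that choice.

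Most UMIs of Ifit1bl1 and Ifit1bl2 lay in neurons, the class with the most UMIs of all genes. In WT vehicle mice excitatory neurons held 134 and inhibitory neurons 37 of the 191 UMIs of Ifit1bl1, and 248 and 55 of the 342 UMIs of Ifit1bl2, and microglia held none of either. By level, neurons did not stand above every other class: Ifit1bl2 was at 2.29 ± 0.574 CPM in excitatory and 3.87 ± 0.910 CPM in inhibitory neurons against 4.73 ± 1.84 CPM in fibroblasts (9 UMIs) and 3.65 ± 1.62 CPM in choroid plexus (7 UMIs; SD, n = 3). Ifit1bl1 stood at 1.25 ± 0.473 and 2.69 ± 0.822 CPM in the same neurons and at 1.15 ± 1.34 CPM in fibroblasts, on 2 UMIs. In astrocytes they stood at 0.144 ± 0.288 CPM (Ifit1bl2) and 0.175 ± 0.209 CPM (Ifit1bl1), on 2 UMIs each. With DMXAA, Ifit1bl2 stood at 2.15 ± 0.471 CPM in WT excitatory neurons against 2.29 ± 0.574 with vehicle, and in WT astrocytes it had 16 UMIs against 2 (exact permutation p = 0.0571). Genes were ranked by how closely their mean level followed each member over 6 classes in 4 groups, 24 points, as a description among 20442 genes. Oasl2, Usp18 and Rsad2, all interferon-induced, were closest to Ifit3 (r = 0.94 each) and to Ifit3b (0.94 for Oasl2), and Oasl2 was closest to Ifit1 (r = 0.89). The WT DMXAA points carried much of this. Without them, over 18 points, Usp18 had r = 0.53 with Ifit3, and Oasl2 and Rsad2 had 0.73 each. Oasl2 then had r = 0.66 with Ifit3b and 0.58 with Ifit1, and 0 of the 3 closest genes of Ifit1, Ifit3 and Ifit3b remained. Ifit1bl2 was closest to Nkrf (r = 0.92), and Ifit1bl1 to Adar (r = 0.90). The points share libraries, and ranking by Spearman's coefficient kept 0 or 1 of the 3 closest genes of each member.

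The rest of the pathway gives the setting of the Ifit values. Of 93 other interferon-stimulated genes listed, 82 were tested over all nuclei and 53 were called higher with DMXAA in WT, with a median log2 change of 1.59 against 0.01 over all genes tested, and 0 were called in KO. In WT microglia 42 of 58 tested were called, all higher, against 1.35% of all genes tested there. The same counts were 20 of 45 in astrocytes against 0.262%, 14 of 52 in excitatory neurons against 0.119%, 9 of 22 in OPCs against 0.138%, 14 of 33 in dentate granule neurons against 0.136%, 2 of 21 in oligodendrocytes against 0.0248% and 0 of 21 in inhibitory neurons, where 0% of all genes were called and 489 had an unadjusted p under 0.05 in edgeR. The list was chosen with earlier results of these data known. A listed gene low in the other groups entered a fit only through its WT DMXAA libraries. These counts are therefore a description and no independent support. In WT microglia the largest changes were in Ifi207 (log2 9.27), Oas2 (9.0) and Ifi213 (7.78), and the smallest in Irf8 (−0.02), Tap2 (0.20) and Sp140 (0.36). Of 5 receptor and JAK-STAT genes named here, 2 were called in WT microglia, Stat2 (2.56) and Irf9 (1.27), which carry the receptor's signal to the nucleus, and Ifnar1 (0.22), Jak1 (0.03) and Ifnar2 (−0.19) were not. The 3 feedback genes tested in WT microglia were called: Usp18 (4.23), which restrains the receptor, Trim30a (2.41) and Ifi35 (1.57). Of the genes of the DNA-sensing arm, 4 were tested in microglia and none was called: Cgas (0.58, adjusted p = 0.38), Tbk1 (0.03), Irf3 (−0.05) and Tmem173, the STING gene (−0.32). Irf7, a factor of this arm that interferon itself induces, did not enter the fit in microglia but was called over all WT nuclei (4.05, adjusted p = 0.00030), the 1 called of 6 tested, and in excitatory neurons (4.23, adjusted p = 0.0086), the 1 called of 5. It is named here after its values were seen.

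Of 14 other genes annotated within 500 kb of the members, 9 were tested over all nuclei and 0 were called with DMXAA in either genotype, where 0.473% (WT, higher) and 0% (KO) of all genes were called, with WT log2 changes between −0.29 and 0.36. They include Lipa and Ch25h, enzymes of lipid handling, the death receptor gene Fas, and Acta2, Stambpl1, Ankrd22, Lipm, Lipn, Gm26902, Slc16a12, Pank1, Kif20b, Gm50137 and Gm50140.

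The same WT DMXAA mice were often the highest and the lowest. Among 13 classes with 20 or more Ifit1 UMIs in WT DMXAA libraries, replicate 1 was the highest in 12 and replicate 3 the lowest in 12. For Ifit3 the same 2 libraries were the highest in 6 of 7 classes and the lowest in 7 of 7, and for Ifit3b in 4 of 5 and 4 of 5. For Ifit2 this was less regular, with replicate 1 the highest in 6 of 9 classes and replicate 3 the lowest in 6 of 9. Without replicate 3 the log2 change of Ifit1 over all nuclei was 4.74 in place of 4.43, and that of Ifit2 in microglia was 5.58 in place of 5.38. Neutrophil-like nuclei, which this library held in excess, were a separate class and are not in these class values. In the 4 WT DMXAA libraries they held 8 of 3778 Ifit1, 9 of 632 Ifit2 and 7 of 738 Ifit3 UMIs, and in replicate 3 itself 1 of 275, 4 of 115 and 5 of 57.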

How the data were processed

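Single-nucleus 3′ libraries of 16 mice were analysed, 4 per group, as labelled. The authors deposited raw UMI counts per gene and barcode, with no normalization; the submitters' processing notes name Cell Ranger 3.1.0, Seurat 3.0 and build mm10, while the file headers name Cell Ranger 6.1.2. Barcodes with 200 to 4000 genes and at most 5% mitochondrial UMIs were kept, and the highest Scrublet scores were removed as doublets, at 0.8% per 1000 barcodes. Of 155084 barcodes, 108878 nuclei remained, with about 32981600 to 53572700 UMIs per library; pairs of libraries shared 12 to 41 barcode sequences. Nuclei were clustered without interferon genes (scanpy 1.11.5, 2000 variable genes, 30 components, 20 neighbours, Leiden resolution 0.5), and clusters were named from at least 3 markers. The upper limit of genes removes deep nuclei: 60.6% of Ifit1 UMIs but 41.7% of Ifit1bl1 UMIs were in nuclei kept.

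UMIs were summed per library and class and fitted on all genes with edgeR 4.0.16 (quasi-likelihood F test with TMM scaling and the filterByExpr filter, in R 4.3.3, on libraries with 20 or more nuclei, the 4 groups sharing 1 dispersion estimate) with Benjamini-Hochberg adjustment. Genes were called at adjusted p under 0.05 and a log2 change over 0.1 in size. Members outside the fit were compared on CPM (UMIs per 1000000 UMIs of the library and class) by exact two-sided permutation, without adjustment. Of 82 tests in WT, 12 reached the smallest p of 0.0286, all higher, and of 72 in KO 1 did, lower. The share of all genes that reached it was not counted, so these numbers are no result about the family. Some rest on few UMIs, such as Ifit2 in WT deep-layer cortical neurons, with 1 for vehicle and 7 for DMXAA. Counting intervals and floors (3 counts) cover counting error only. On counts simulated for the all-nuclei WT comparison (19876 genes), 72% of 50 genes changed 2-fold and 100% of those changed 4-fold were called. For microglia (8650 genes) the shares were 36% and 92%. Of the unchanged genes, 11 over all nuclei and 5 in microglia were called in the WT comparison too. The simulation gave every WT DMXAA library the same fold, and the real libraries differ, so these shares need not hold for the real changes. The changed genes were drawn only from those above a set mean count per library, so the shares do not cover members with few UMIs. Replicates are separate mice. Numbers of replicates follow accession order and pair nothing. DESeq2 1.42.0, limma 3.58.1 and other filters, scalings, clusterings and left-out libraries were tried as alternatives.

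The members and the gene lists were chosen with earlier results of these data known. Named genes were the 6 members, the 3 largest and 3 smallest WT changes in microglia of each list, genes within 500 kb, the 3 genes closest to each member by Pearson correlation over 24 class-by-group means, and Ifnar1. A gene of the receptor and JAK-STAT list is not reported here.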

Additional observations from a re-analysis of the deposited data

Results flagged for a closer look

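Among 148 groups of 4 libraries, 5 had a library far from the other 3 by Dixon's criterion, where chance gives about 1 in 20 groups. Ifit2 in astrocytes stood at 4.76 CPM in WT vehicle replicate 1, against 1.73 to 2.06 CPM in the other libraries of the group. Ifit3b in OPCs stood at 28.9 CPM in WT DMXAA replicate 1, against 2.35 to 6.03 CPM. Ifit1bl2 in dentate granule neurons stood at 1.42 CPM in KO DMXAA replicate 1, against 0.592 to 0.725 CPM. Ifit2 in inhibitory neurons stood at 5.82 CPM in WT vehicle replicate 3, against 3.80 to 4.07 CPM. The sum of the members in inhibitory neurons stood at 18.7 CPM in KO vehicle replicate 1, against 11.8 to 12.7 CPM.

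Nuclei left out of the comparisons held the family's reads too. In WT nuclei over the limit of 4000 genes the mean Ifit1 level was 16.7 CPM with DMXAA and 0.724 CPM with vehicle, and the sum of the members was 24.3 and 6.98 CPM. In WT nuclei removed as doublets Ifit1 was at 24.7 CPM with DMXAA and 2.24 CPM with vehicle, and the sum at 45.8 and 10.9 CPM.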

How the results depend on the processing

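In WT mice Ifit1 was called over all nuclei in 24 of 24 alternatives (log2 change 3.81 to 4.74), in excitatory neurons in 24 of 24 (5.01 to 5.94) and in dentate granule neurons in 22 of 22 (6.93 to 8.22), and Ifit2 in microglia in 23 of 23 that could be fitted (4.19 to 6.28). In microglia, dentate granule neurons and astrocytes these genes passed the filter only because of the WT DMXAA libraries, so the count of calls there is no support. Ifit3 over all nuclei and Ifit1 in astrocytes were called in 23 of 24 each and lost with WT fitted alone (adjusted p = 0.146 and 0.112). Where a count of members below moved, the fit behind it called 0.0242 to 13.1% of all genes in the WT comparison. The ranges for the other comparisons follow in the next paragraph. Each range pools fits of several classes and settings, so the counts describe how calls moved and are no result about the family. Members called in WT over all nuclei were 2, against 4 with DESeq2 and 1 with WT fitted alone. With no filter on low counts Ifit3b was called there as well (adjusted p = 0.048). In microglia 1 was called, against 4 with no filter on low counts and 0 with interferon genes used for clustering, where 452 WT DMXAA nuclei had that name in place of 1455. In astrocytes 1 was called, against 3 with no filter and 0 with WT alone, and in OPCs 0, against 3 with no filter and 1 with doublets kept. In CA1 0 were called, against 1 with DESeq2 and 1 with no filter, and in fibroblasts 0, against 2 with no filter. The interaction called 0 members, against 2 with DESeq2 over all nuclei, 1 with DESeq2 in excitatory neurons and 1 with limma-trend in microglia and in dentate granule neurons. Between vehicle groups 3 members were called over all nuclei, against 1 with no TMM. In excitatory neurons 1 was called, against 0 with no TMM and 2 with DESeq2, DESeq2 size factors, limma-trend or doublets kept. In inhibitory neurons 1 was called, against 0 with no TMM, and in dentate granule neurons 0, against 1 with no filter. The WT change of Ifit1bl1 over all nuclei turned to −0.00027 with no TMM. The dentate share of nuclei with Ifit1 was 5.30% thinned and 24.1% unthinned, and of the 3 genes most like the sum of the members 1 remained with Spearman and 0 without the WT DMXAA groups.

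With each library left out in turn, WT calls ran from 2 to 4 over all nuclei, 1 to 2 in microglia, 1 to 3 in astrocytes, 0 to 2 in OPCs, 0 to 1 in CA1 and 0 to 1 in fibroblasts. Over all nuclei, in CA1 and in fibroblasts the highest count occurred only without WT DMXAA replicate 3, while in microglia, astrocytes and OPCs it also occurred without any 1 of the 8 KO libraries, and in OPCs without WT vehicle replicate 3. The number of libraries that the filter on low counts needs follows the smallest group. Leaving out any library lowers it, so members can enter a fit that they did not enter before. The interaction over all nuclei ran from 0 to 2. Calls between vehicle groups ran from 1 to 2 in excitatory neurons, 1 to 2 in CA1 and 0 to 1 in fibroblasts. The WT log2 change over all nuclei ran from −0.14 to 0.29 for Ifit1bl1 and from −0.11 to 0.30 for Ifit1bl2. The fits behind the counts of members that moved called 0.0242 to 13.1% of all genes in the WT comparison, 0.0544 to 0.612% in the interaction and 7.25 to 63.5% between vehicle groups. The causes were not tested. Without WT DMXAA replicate 3, a comparison added after seeing the data, 13.5% of microglia had a family UMI when thinned, against 11%. The filter on low counts needed 4 libraries at 16.9 CPM in microglia and at 1.07 CPM in dentate granule neurons, and 1 of 6 members passed it in each. No paired analysis was possible because the replicate numbers are accession order and the labels tie no mice across groups.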
